A study of Mus musculus with 18 samples.

Results

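The ETS transcription factors described here are 10 genes, Ehf, Elf3, Spdef, Etv1, Etv4, Etv5, Erg, Fli1, Ets1 and Ets2. Members were taken as the probe sets whose only listed gene is one of them. This gave 22 probe sets for 9 genes, among 18193 genes with a probe set of their own. Etv1 had none, since its 3 probe sets also list Gm5454, and it was not analysed here. Each member is described by its brightest kept probe set, with the others beside it. The arrays compare 9 normal mouse prostates, taken as dorsolateral plus ventral lobes, with 9 tumours of the TRAMP mouse. In TRAMP mice a probasin promoter drives the SV40 T antigens in prostate epithelium, so the model depends on cells that use that promoter. Ages, strain background and any treatment are not given in the sources used here. Whether each sample is its own animal is not stated either, and the p-values therefore speak only of the variation among the 18 samples, which may be technical.

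ETS factors share a DNA-binding domain that recognises a GGAA core, and subfamilies differ in the cell types that use them. Ehf, Elf3 and Spdef act in epithelia. Etv1, Etv4 and Etv5 form the PEA3 subfamily, which responds to growth factor signalling through ERK. Erg and Fli1 act in endothelial and blood cells, Ets1 in lymphocytes, vessels and stroma, and Ets2 in many tissues. In human prostate cancer, fusions of the androgen-driven gene TMPRSS2 with ERG, and less often with ETV1, ETV4 or ETV5, are common.

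Signals are given as log2(signal + 16) and errors as the SD of 9 arrays. Because 16 is added, differences of dim genes come out smaller than they are. A value is called dim where it lies under the 40th percentile of its array, which was 6.91 to 7.41 on this scale. Tests are from limma over 12793 genes with Benjamini-Hochberg adjustment at 0.05, and a gene is said to rise or fall only where it passed. Of the 9 genes, 7 passed the filter on low values, and Erg and Etv4 did not. Among the 7, 2 were called higher in tumours, Ets1 and Etv5, and 1 lower, Spdef. Over all genes tested, 11.3% were called higher, 12.7% lower and 24% in either direction. The members' 3 of 7 is therefore read only as a description. The median difference of the 7 was 0.22, against -0.01 over all genes.

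**Figure D1:**
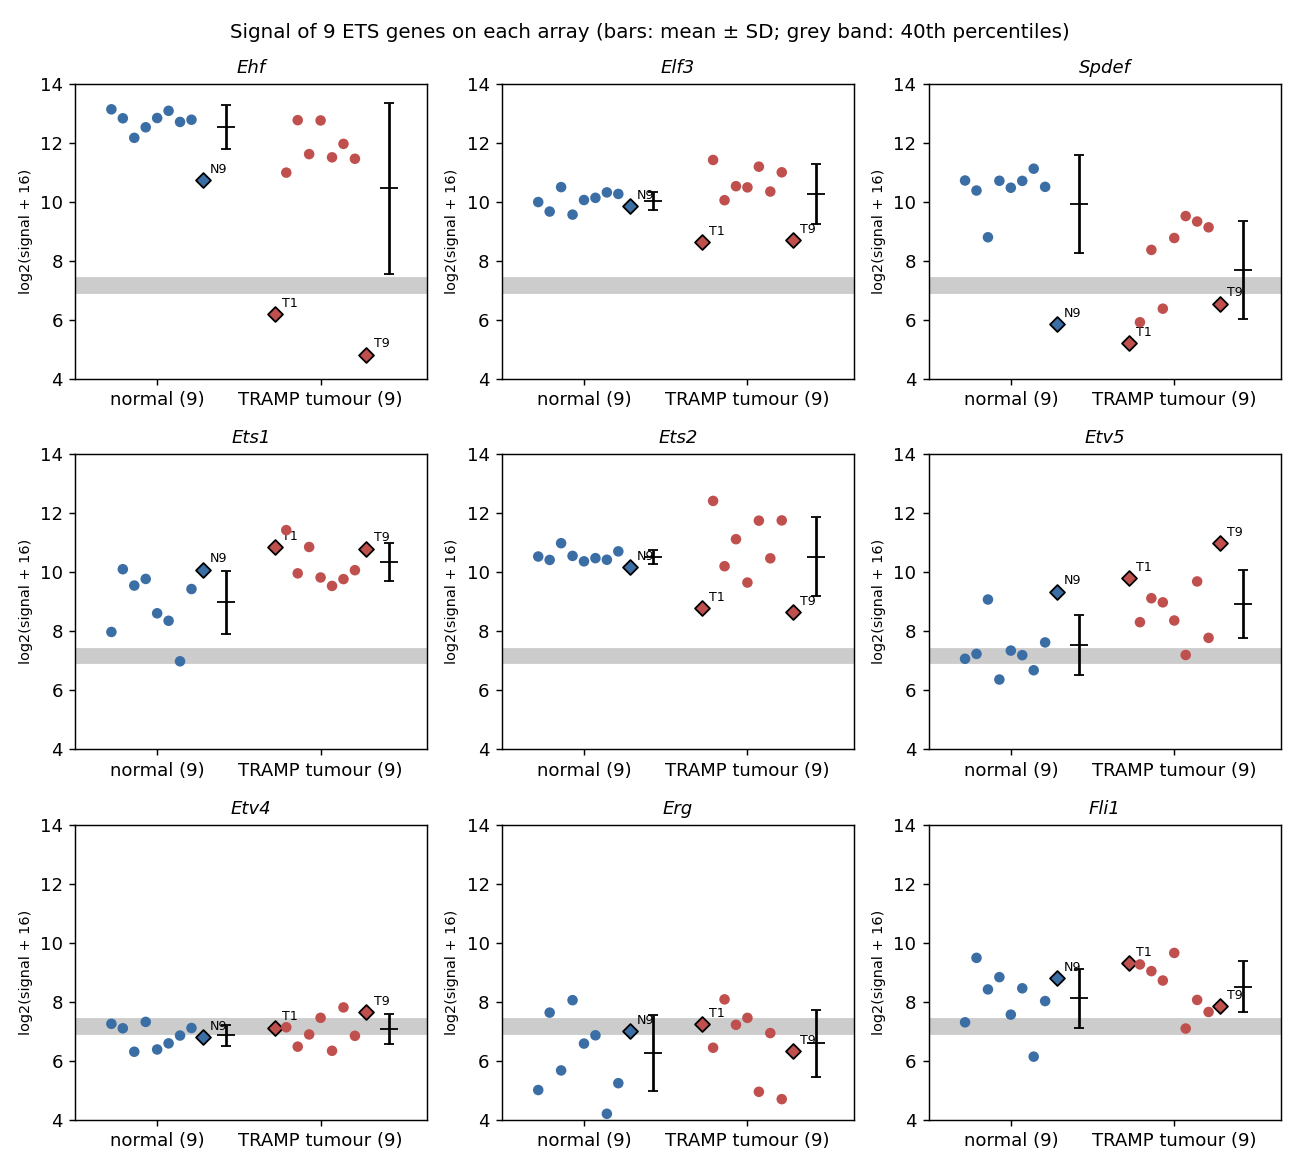
Signal of the 9 measured ETS genes, as log2(signal + 16), on 9 normal (blue) and 9 tumour (red) arrays, with the mean ± SD beside each group and the span of the 40th percentiles (6.91 to 7.41) in grey. Diamonds mark tumours 1 and 9 (T1, T9) and normal prostate 9 (N9): Ehf lay at 6.18 and 4.82 on T1 and T9, and Spdef at 5.84 on N9.

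Several arrays stood apart in markers of other cells. The pan-epithelial score, the mean over 12 epithelial genes such as Epcam, Cdh1 and Krt8, was 8.15 in tumour 1 and 6.48 in tumour 9, against at least 11.31 on every other array. The neuroendocrine score over 9 genes was 10.42 and 10.72 in these tumours, 9.09 in tumour 4 and at most 6.97 elsewhere. The seminal vesicle score over 6 genes was 12.09 in normal prostate 9, 15.08, 15.57 and 14.98 in tumours 3, 5 and 7, 10.83 and 10.85 in tumours 6 and 8, and at most 8.34 elsewhere. Pbsn, which encodes the prostate secretory protein probasin, was dim in normal prostate 9 alone among normal samples, at 4.18, and in all 9 tumours. Poly-A spike controls were bright on normal prostates 1 to 6 and tumours 1 to 5 and dim on the other 3 normal and 4 tumour arrays, here called the bright and the dim spike set. In whole tissue, fewer cells of a type and less RNA per cell cannot be told apart.

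RefSeq promoter entries of build GRCm38.p6 were found for 6 of the 10 genes, Elf3, Spdef, Etv1, Etv5, Erg and Ets2. The 250 bases before the start are shown for Elf3 and Ets2, whose signals varied together among tumours, and for Spdef and Etv5, which were called in opposite directions. They run 5′ to 3′ on the gene's strand, with the ETS core GGAA or its complement TTCC in capitals. Elf3 is read from the minus strand at chr1:135258473-135258722 and Ets2 from the plus strand at chr16:95702157-95702406. Spdef is read from the minus strand at chr17:27728952-27729201 and Etv5 from the minus strand at chr16:22439571-22439820, the first of 2 starts listed for it.
Elf3: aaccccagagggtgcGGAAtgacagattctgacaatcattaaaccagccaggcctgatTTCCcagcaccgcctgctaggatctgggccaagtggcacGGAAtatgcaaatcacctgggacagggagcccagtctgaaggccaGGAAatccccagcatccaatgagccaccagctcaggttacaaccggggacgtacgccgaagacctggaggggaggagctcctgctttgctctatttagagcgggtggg
Ets2: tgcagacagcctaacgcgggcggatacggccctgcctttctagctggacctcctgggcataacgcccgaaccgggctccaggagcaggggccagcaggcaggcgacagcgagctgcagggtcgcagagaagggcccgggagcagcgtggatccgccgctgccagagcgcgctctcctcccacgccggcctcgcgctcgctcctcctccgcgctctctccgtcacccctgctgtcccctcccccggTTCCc
Spdef: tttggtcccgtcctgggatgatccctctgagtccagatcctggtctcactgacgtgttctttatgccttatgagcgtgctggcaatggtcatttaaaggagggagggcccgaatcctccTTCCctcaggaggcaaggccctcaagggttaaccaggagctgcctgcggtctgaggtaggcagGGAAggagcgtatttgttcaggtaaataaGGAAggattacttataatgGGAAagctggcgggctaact
Etv5: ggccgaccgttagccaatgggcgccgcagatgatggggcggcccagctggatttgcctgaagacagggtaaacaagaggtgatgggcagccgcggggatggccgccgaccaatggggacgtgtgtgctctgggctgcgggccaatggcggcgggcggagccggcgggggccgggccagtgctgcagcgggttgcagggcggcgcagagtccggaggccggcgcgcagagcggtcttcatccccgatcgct
Counting both strands, the core had 4 matches in Elf3, 1 in Ets2, 4 in Spdef and 0 in Etv5. It is a short motif, and 93.4% of 32851 RefSeq promoter windows of this length hold it, with a median of 3 matches. The longer motif CCGGAAGT, also searched on both strands and containing the core, was in 0 of the 4 windows and in 2.88% of all windows. These matches describe the letters and do not show binding.

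Spdef, a factor of secretory epithelium, was lower in tumours. Its single probe set ran from 5.84 through 10.50 to 11.12 (lowest, median, highest) in normal prostate and from 5.20 through 8.36 to 9.51 in tumours. All 9 tumours lay below the normal median, and the groups overlapped through normal prostates 3 and 9, at 8.79 and 5.84. The means were 9.91 ± 1.66 in normal prostate and 7.68 ± 1.66 in tumours (difference -2.23 ± 0.73 SE, limma adjusted p = 0.0320), and Spdef was dim in 4 tumours and in normal prostate 9.

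Among tumours, Spdef separated into a lower and a higher range. Tumours 1, 2, 4 and 9 measured 5.20, 5.91, 6.37 and 6.54. Tumours 3, 5, 6, 7 and 8, the 5 tumours with the highest seminal vesicle scores, measured 8.36, 8.77, 9.51, 9.33 and 9.13. Normal prostate 9 had a high seminal vesicle score with a low Spdef signal, and the part of that tissue in these values was not tested. Without normal prostate 9 and tumours 3, 5 and 7, the difference was -3.31 ± 0.62 SE (limma adjusted p = 0.00125). Without tumours 6 and 8 as well it was -4.42 ± 0.38 SE (limma adjusted p = 8.79e-06). Both omissions remove the lowest normal array for Spdef and tumours of its higher range.

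The call of Spdef depended on single arrays and on the actin ratio. It was lost, with limma adjusted p-values of 0.0525 to 0.0633, when any of normal prostates 1, 2, 4, 5, 6, 7 and 8 or tumours 1, 2, 4 and 9 was left out, while the difference ran from -2.74 to -1.92 over all 18 omissions. The log2 ratio of 3' to 5' actin signal, which rises as RNA degrades, was 1.71 ± 0.692 in normal prostate and 1.12 ± 0.506 in tumours. With it as a covariate the Spdef difference was -1.37 (limma adjusted p = 0.213). Within the bright spike set the difference was -3.37, and within the dim set, which holds normal prostate 9, it was -0.53 (limma adjusted p = 0.896). The call was also lost without tumours 1 and 9 (-1.72, limma adjusted p = 0.107) and without normal prostates 1 and 3 and tumour 4 (-2.12, limma adjusted p = 0.0848).

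Ehf, an epithelial ETS factor, was dim in 2 tumours and bright in the other 7. Its brightest probe set ran from 10.72 through 12.78 to 13.13 in normal prostate and from 4.82 through 11.50 to 12.76 in tumours. Tumours 9 and 1 lay at 4.82 and 6.18, while the other 7 tumours lay between 10.98 and 12.76. Tumours 1 and 9 also had the lowest pan-epithelial scores, and the part of epithelial content in the Ehf values was not tested.

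All 9 tumours lay below the normal median of Ehf, but the difference of means did not pass the test (12.53 ± 0.74 in normal prostate, 10.45 ± 2.89 in tumours, difference -2.08 ± 0.92 SE, limma adjusted p = 0.106). Without tumours 1 and 9, a choice made after seeing the data, the difference was -0.67 ± 0.34 SE (limma adjusted p = 0.174). Without normal prostate 9 and tumours 3, 5 and 7 it passed (-3.33 ± 0.98 SE, limma adjusted p = 0.0183), as it did without tumours 6 and 8 as well (-4.36 ± 1.02 SE, limma adjusted p = 0.00552). The first of these omissions removes the lowest normal array for Ehf, at 10.72, and its 3 highest tumours, at 12.76, 12.75 and 11.96. In the second, the dim tumours 1 and 9 are 2 of the 4 tumours left.

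The 4 probe sets of Ehf disagreed on tumours 1 and 9. Probe sets 1419474_a_at, 1419475_a_at and 1451375_at lay between 4.49 and 6.42 on both arrays. Probe set 1447760_x_at read 10.46 in tumour 1 and 10.97 in tumour 9, within its range on the other arrays, and its _x_ suffix marks probes that may bind other transcripts. It differed between the groups by -0.38 ± 0.19 SE (limma adjusted p = 0.180 over probe sets). None of the 4 passed in limma over 27292 probe sets, of which 19.6% were called, with adjusted p-values of 0.102 to 0.220.

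**Figure D2:**
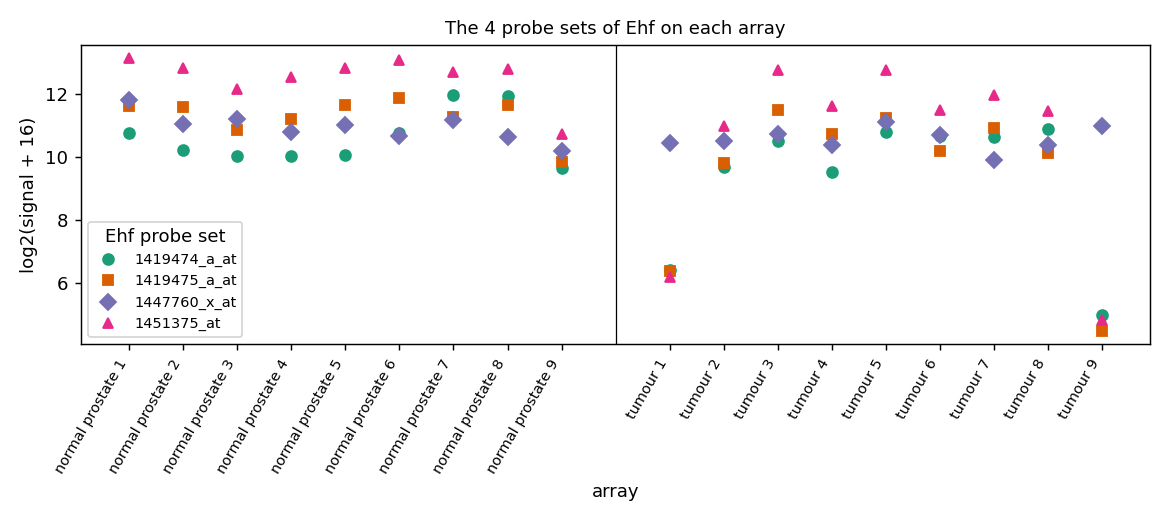
Signal of the 4 Ehf probe sets, as log2(signal + 16), on each of the 18 arrays, normal prostate at left and tumours at right. On tumours 1 and 9, 3 probe sets lie between 4.49 and 6.42, and 1447760_x_at lies at 10.46 and 10.97.

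Elf3, an activator in epithelial differentiation, spread among tumours on both sides of a narrow normal range. Normal prostates ran from 9.56 through 10.06 to 10.49, and tumours from 8.62 through 10.48 to 11.41. Tumours 1 and 9 lay below every normal array, at 8.62 and 8.68, and tumours 2, 6, 8 and 4 above every one, at 11.41, 11.19, 10.99 and 10.52. The difference was 0.22 ± 0.33 SE with a 95% interval of -0.47 to 0.92 (limma adjusted p = 0.662). Without tumours 1 and 9 it was 0.68 ± 0.20 SE (limma adjusted p = 0.0253), and Elf3 was called in that 1 of 19 other settings and in 0 of 18 single omissions.

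Ets2, a target of Ras and ERK signalling, varied with Elf3. Its brightest probe set ran from 10.18 through 10.47 to 10.98 in normal prostate and from 8.65 through 10.47 to 12.41 in tumours. Tumours 9, 1 and 5 lay below every normal array, at 8.65, 8.77 and 9.65, and tumours 2, 8, 6 and 4 above every one, at 12.41, 11.75, 11.75 and 11.12. The difference of 0.02 ± 0.42 SE (95% interval -0.87 to 0.91, limma adjusted p = 0.982) averages tumours on both sides of the normal range. Probe set 1447685_x_at had its extremes on the same tumours, 5.12 in tumour 9 and 10.31 in tumour 2, and 1437809_x_at ran from 6.06 to 8.03 in tumours.

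The SD among tumours was 5.91 times that among normal arrays for Ets2, 3.91 times for Ehf and 3.28 times for Elf3. The other members tested had lower ratios, from 0.61 for Ets1 to 1.14 for Etv5. The median ratio was 1.14 over the 7 members tested and 1.38 over all genes tested, of which 7.50% had a ratio above 3. A wide spread among tumours was therefore not shared by all members. As deviations from their group means over 18 arrays, Elf3 and Ets2 correlated with r = 0.91, a description in which both genes share the same arrays. Within normal prostate r was 0.55 and within tumours 0.93. The windows printed above for these genes held 4 and 1 matches to the core.

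Ets1, the founding member of the family, was higher in tumours. Its brightest probe set, 1452163_at, ran from 6.98 through 9.43 to 10.10 in normal prostate and from 9.53 through 10.07 to 11.42 in tumours. All 9 tumours lay above the normal median, and 4 of them, tumours 1, 2, 4 and 9, lay above every normal array. The means were 8.98 ± 1.07 and 10.34 ± 0.65 (difference 1.36 ± 0.39 SE, 2.57-fold on this scale, limma adjusted p = 0.0175).

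The call of Ets1 held when each of the 18 arrays was left out in turn (differences of 1.11 to 1.50, limma adjusted p-values of 0.00950 to 0.0373). It did not pass once the actin ratio entered the fit (0.9997, limma adjusted p = 0.120) and without tumours 1 and 9 (1.22, limma adjusted p = 0.0561). It was also lost without normal prostates 1 and 3 and tumour 4, with a skeletal muscle score of 13.44 in the first and urothelium scores of 13.56 and 13.42 in the others (1.23, limma adjusted p = 0.0614), and by the exact Wilcoxon test (adjusted p = 0.0564). Within the bright and dim spike sets the difference was 1.52 and 1.21, and the latter did not pass (limma adjusted p = 0.520).

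The other Ets1 probe sets did not pass. Probe set 1426725_s_at ran from 6.22 to 9.69 in normal prostate and from 8.50 to 10.81 in tumours (difference 0.97 ± 0.42 SE, limma adjusted p = 0.110 over probe sets). Probe set 1422028_a_at differed by 0.04 ± 0.21 SE (limma adjusted p = 0.922 over probe sets), and 1422027_a_at was below the filter.

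Stromal markers and Ets1 were lowest on the same 2 normal arrays, which was not so among tumours. Normal prostates 7 and 1 were lowest in Ets1, at 6.98 and 7.97, and lowest in the fibroblast and matrix score over 8 genes, at 8.69 and 9.77. That score ran from 8.69 to 11.27 in normal prostate and from 10.04 to 11.90 in tumours. Of its 8 genes 3 were called higher, against 11.3% of all genes tested. Among tumours, tumour 9 had the lowest score, 10.04, with Ets1 at 10.80, and tumour 2 the second lowest, 11.05, with the highest Ets1, 11.42. Normal prostate 7 was the lowest normal array in other marker scores too. These were endothelium (6.73), macrophage and myeloid (7.97), B and plasma cells (6.55) and adipocyte (6.10).

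Immune markers are given beside Ets1 as well. The macrophage and myeloid score over 9 genes was 9.05 ± 0.60 in normal prostate, at most 9.87, and 10.07 ± 0.87 in tumours, at most 11.91. Of its 9 tested genes 4 were called higher and 0 lower, against 11.3% and 12.7% of all genes tested. The part of stroma and of myeloid cells in the Ets1 difference was not tested. Of 8 measured T and NK cell genes, 3 passed the filter and 2 of the 8 were dim on all 18 arrays. Of the 3 tested 0 were called, against 24% of all genes tested.

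Etv5, of the PEA3 subfamily, was higher in tumours. Its brightest probe set, 1428142_at, ran from 6.36 through 7.23 to 9.34 in normal prostate and from 7.19 through 8.98 to 10.99 in tumours. Tumours 9, 1 and 7, at 10.99, 9.79 and 9.68, lay above every normal array, and 8 of 9 tumours lay above the normal median. The highest normal arrays were normal prostates 9 and 3, at 9.34 and 9.07, the lowest 2 normal arrays for Spdef. The means were 7.54 ± 1.01 and 8.91 ± 1.15 (difference 1.37 ± 0.48 SE, 2.58-fold on this scale, limma adjusted p = 0.0442).

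This call was close to the threshold. It was lost, with limma adjusted p-values of 0.0589 to 0.0846, when any of normal prostates 1, 2, 4, 5, 6, 7 and 8 or tumours 1, 3, 4, 7 and 9 was left out, with differences of 1.11 to 1.59 over all 18 omissions. With the actin ratio as a covariate the difference was 0.90 (limma adjusted p = 0.243), and without tumours 1 and 9 it was 0.94 (limma adjusted p = 0.142). It was 1.53 within the bright spike set and 1.03 within the dim set, and the latter did not pass, as 0 genes were called there. Etv5 was called in 9 of 19 other settings. Probe set 1450082_s_at differed by 1.02 ± 0.40 SE (limma adjusted p = 0.0784 over probe sets) and 1420998_at by 0.29 ± 0.27 SE (limma adjusted p = 0.475 over probe sets).

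Etv4, a PEA3 gene, was near background in both groups. Probe set 1423232_at was dim on all 18 arrays. Probe set 1443381_at ran from 6.30 through 6.85 to 7.31 in normal prostate and from 6.33 through 7.12 to 7.80 in tumours, and was dim on 6 normal and 5 tumour arrays. The groups overlapped, with 3 tumours above every normal array, and the difference was 0.22 ± 0.21 SE (limma adjusted p = 0.506 over 18193 genes with no filter).

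Genes listed for the ERK pathway, its feedback and response, and PEA3 control showed 1 higher and 1 lower of 16 tested, with a median difference of 0.07. Over all genes tested 24% were called in either direction, and nothing is read from the count about the list. Dusp4, a phosphatase induced by ERK signalling, rose from 7.99 ± 1.13 to 9.67 ± 1.48 (1.69 ± 0.58 SE, limma adjusted p = 0.0399). Phlda1, an early response gene, fell from 12.73 ± 0.98 to 10.40 ± 1.67 (-2.33 ± 0.60 SE, limma adjusted p = 0.00925). Of 2 genes chosen for their roles after their values were seen, the feedback phosphatase gene Dusp6 differed by 0.46 ± 0.34 SE (limma adjusted p = 0.343). The other, Cic, which encodes a repressor of PEA3 genes, differed by 0.38 ± 0.15 SE (limma adjusted p = 0.0720).

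Erg and Fli1, of the endothelial and blood branch, did not pass the test. Erg probe set 1425370_a_at was dim on all 18 arrays. Probe set 1440244_at ran from 4.20 through 6.58 to 8.05 in normal prostate and from 4.70 through 6.93 to 8.08 in tumours, and was dim on 7 normal and 5 tumour arrays. The groups overlapped over most of their range, and the difference was 0.34 ± 0.53 SE, with a 95% interval of -0.77 to 1.46 (limma adjusted p = 0.712 over 18193 genes with no filter). Tmprss2, the mouse gene whose human counterpart is fused to ERG, also chosen after its values were seen, was 11.79 ± 0.85 in normal prostate and 10.20 ± 1.99 in tumours (-1.59 ± 0.67 SE, limma adjusted p = 0.0913).

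Fli1 probe set 1433512_at ran from 6.14 through 8.41 to 9.48 in normal prostate and from 7.09 through 8.72 to 9.65 in tumours. The groups overlapped over most of their range, and the difference was 0.40 ± 0.42 SE with a 95% interval of -0.47 to 1.27 (limma adjusted p = 0.511). Probe set 1422024_at was below the filter and had means of 6.04 ± 0.96 and 6.90 ± 0.72. The endothelium score over 13 genes ran from 6.73 to 8.96 in normal prostate and from 7.29 to 8.57 in tumours. Of its 12 tested genes 0 were called, against 24% of all genes tested. Normal prostate 7 was the lowest of all arrays in that score, in Erg at 4.20 and in Fli1 at 6.14.

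**Figure D3:**
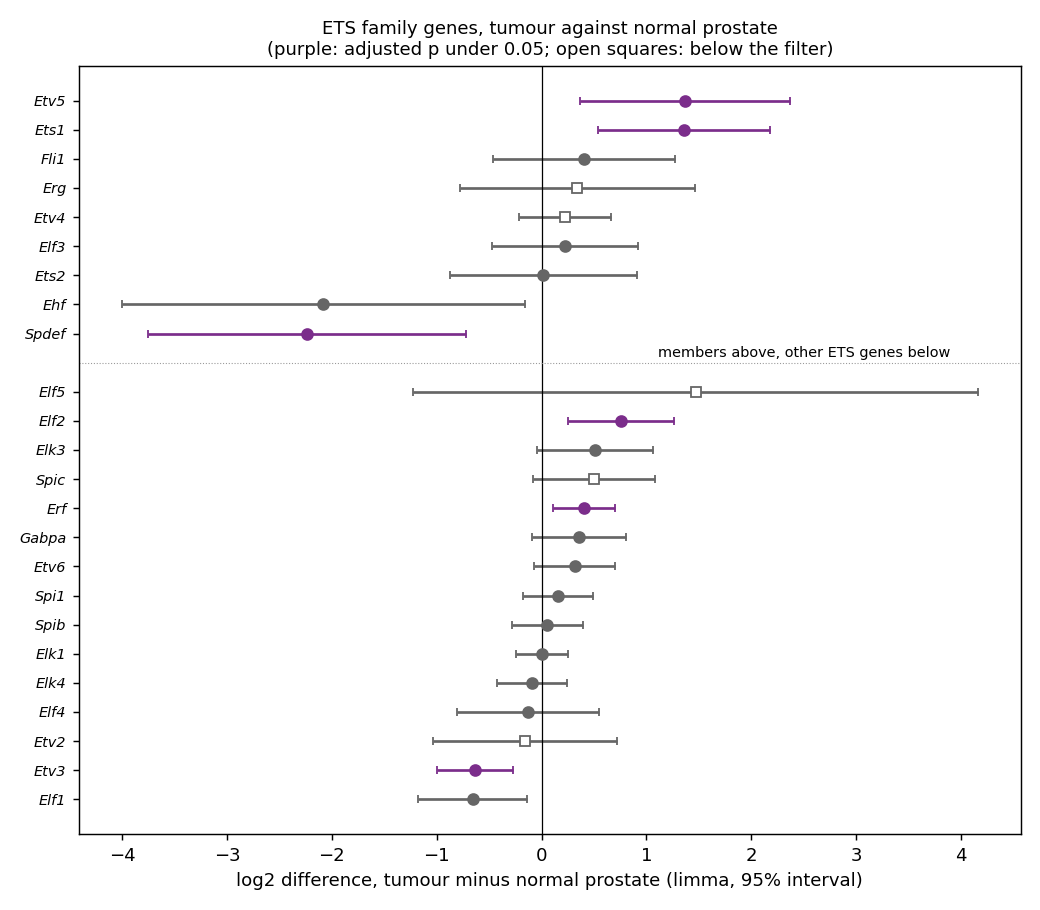
Log2 difference, tumour minus normal prostate, with its limma 95% interval, for 9 ETS members (upper block) and 15 other ETS genes (lower block). Purple marks an adjusted p under 0.05: Etv5 and Ets1 to the right, Spdef to the left, and Elf2, Erf and Etv3 among the others, while open squares are genes below the filter.

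Of 15 other ETS genes with a probe set of their own, 12 passed the filter, 2 were called higher and 1 lower, with a median difference of 0.10. This is read against the 24% of all genes called in either direction, and nothing is read from it about the family. Elf2, a broadly expressed factor, rose from 8.84 ± 0.24 to 9.59 ± 0.71 (0.75 ± 0.24 SE, limma adjusted p = 0.0303), with tumours 9 and 1 highest at 10.82 and 10.48. The repressor gene Erf rose by 0.40 ± 0.14 SE (limma adjusted p = 0.0450), and all 9 tumours lay above its normal median. The repressor gene Etv3 fell from 10.15 ± 0.28 to 9.51 ± 0.42 (-0.63 ± 0.17 SE, limma adjusted p = 0.0133), with 7 tumours below every normal array. This is its brightest probe set, and its other probe sets differed by -0.38 to -0.12. Elf1 was 10.71 ± 0.53 in normal prostate and 10.05 ± 0.55 in tumours (-0.66 ± 0.25 SE, limma adjusted p = 0.0599). Its other probe set, 1439319_at, differed by 0.05. The other 8 genes that passed the filter differed by -0.13 to 0.51.

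Of 15 tested genes described as ETS targets, 3 were called higher and 1 lower, with a median difference of 0.79. This is read against the 24% of all genes called in either direction, and nothing is read from it about the list. In the same tumours the fibroblast and matrix list had 3 of 8 genes higher and a median of 1.03. The macrophage and myeloid list had 4 of 9 higher and a median of 1.01. Over all genes 11.3% were called higher. The part of both lists in the target genes' values was not tested. Id2, which encodes an inhibitor of helix-loop-helix factors, rose by 1.74 ± 0.46 SE (limma adjusted p = 0.0112). The matrix protease genes Mmp14 and Mmp3 rose by 1.04 ± 0.32 SE (limma adjusted p = 0.0247) and 0.89 ± 0.29 SE (limma adjusted p = 0.0302). The 1 lower gene, the TGF-beta receptor gene Tgfbr2, lies outside the naming rule and was named after its values were seen. It fell from 12.03 ± 0.54 to 11.17 ± 0.79 (-0.86 ± 0.30 SE, limma adjusted p = 0.0459). Of 9 tested prostate luminal and androgen response genes, 7 were lower and 0 higher, among them Azgp1, Agr2 and Fkbp5. Over all genes tested 12.7% were called lower and 11.3% higher.

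**Figure D4:**
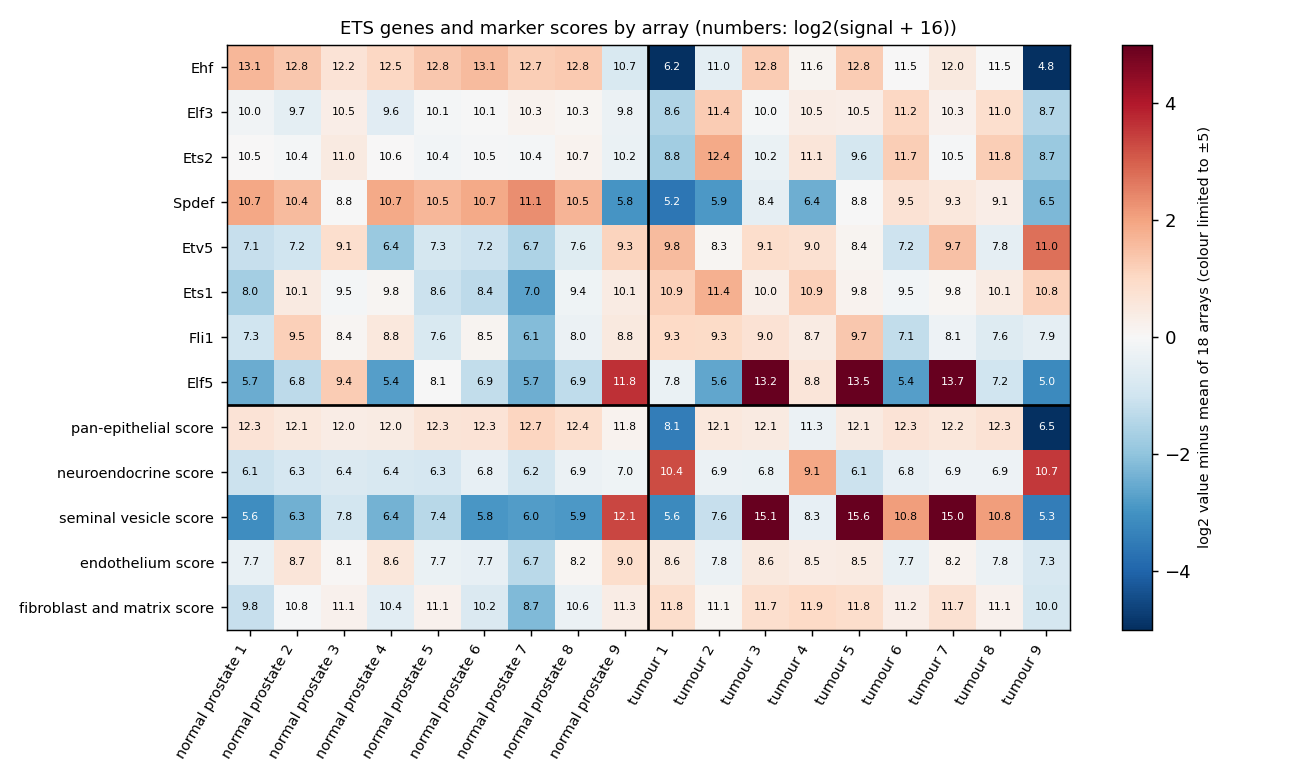
Each cell gives log2(signal + 16) for an ETS gene or the mean of a marker list on 1 array, coloured by its distance from the mean of the 18 arrays. Tumours 1 and 9 are low in Ehf, Elf3 and Ets2 and in the pan-epithelial score (8.15 and 6.48), and Elf5 is at 11.82 to 13.69 on the 4 arrays with the top seminal vesicle scores.

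The genes whose deviations from their group means most resembled those of each member were named by Pearson r over 18 arrays. These are descriptions over arrays that share their tissue make-up. For Ehf they were Spint2, a protease inhibitor gene of epithelia, Zbtb7b, and Cdh1, which encodes E-cadherin, with r of 0.98 for each. For Elf3 they were the laminin gene Lama5, Tgif1 and Cda, with r of 0.93 to 0.94. For Spdef they were Atp2c2, a calcium pump gene of secretory cells, Apof and Lrrc26, with r of 0.91 to 0.93.

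For Etv5 the nearest genes were the actin regulator gene Pfn2, Brd3 and Dusp4, with r of 0.88 to 0.90. Within normal prostate and within tumours, r was 0.95 and 0.87 for Pfn2, 0.80 and 0.94 for Brd3, and 0.88 and 0.87 for Dusp4. For Fli1 they were Rhoa, the collagen gene Col3a1 and the apelin receptor gene Aplnr, with r of 0.87 to 0.88. For Ets1 they were Pxdn, Pmepa1 and Epb41l2, with r of 0.84 to 0.87, and for Pxdn r was 0.98 within normal prostate and 0.52 within tumours. For Ets2 they were Elf3, Steap2 and the laminin gene Lamb3, with r of 0.90 to 0.91.

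Of 16 relations set out between a member and a marker score within a group, 13 were not tested because of a wide gap between neighbouring scores. That gap was 34.3% to 54.3% of the range of the scores, against 25.5% in the other 3. In normal prostate it set apart normal prostate 7 alone in the endothelium score (6.73) and normal prostate 9 alone in the ERK pathway score (10.40). The other 3 concerned the pan-epithelial score in the 9 normal prostates, with p-values adjusted over these 3. For Spdef, Pearson r was 0.764 (exact permutation p = 0.00719, adjusted p = 0.0216) and Spearman rho 0.767 (exact permutation p = 0.0214, adjusted p = 0.0642). Without the 2 arrays farthest from the median score, normal prostates 7 and 9, r was 0.576 (exact permutation p = 0.209, n = 7). Normal prostate 9 was also the lowest normal array for Spdef, at 5.84. With fewer arrays and a narrower range of scores, this omission cannot decide whether the relation rests on those arrays. For Ehf r was 0.697 (exact permutation p = 0.0392, adjusted p = 0.0589), rho 0.583 (exact permutation p = 0.108, adjusted p = 0.162) and r without those arrays 0.726. For Elf3 r was 0.430 and rho 0.400 (exact permutation p and adjusted p both 0.249 for r and both 0.291 for rho), and r without those arrays 0.206.

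**Figure D5:**
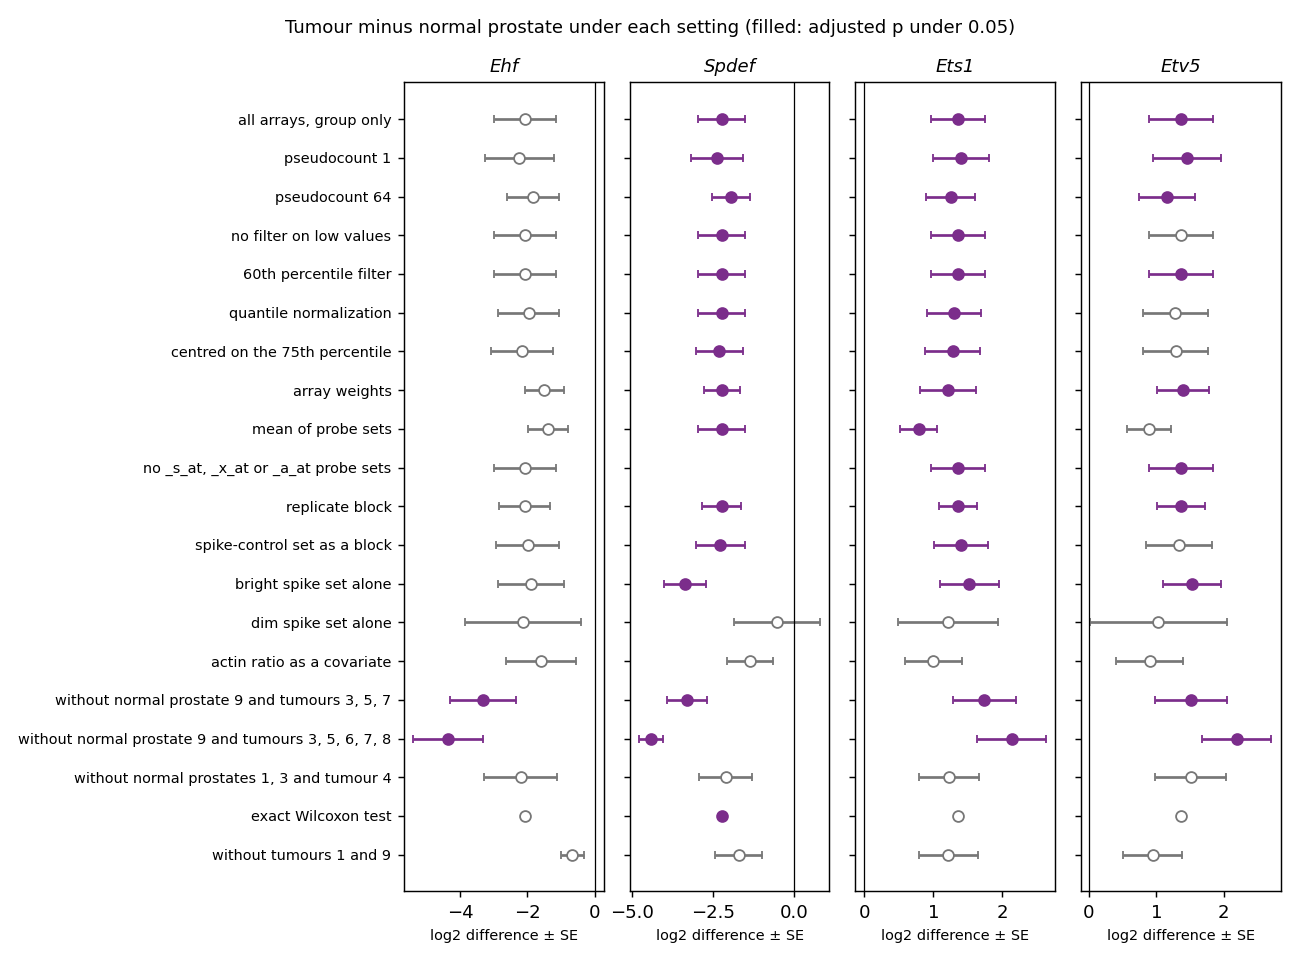
Log2 difference ± SE, tumour minus normal prostate, of Ehf, Spdef, Ets1 and Etv5 with all arrays and under 19 other settings, filled where the adjusted p was under 0.05. Ets1 and Etv5 stay above 0 and Ehf and Spdef below 0 in each setting drawn, while calls are gained or lost, and Spdef has no value without _a_at probe sets.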

How the data were processed

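Total RNA (Trizol, biotin label) from 9 normal prostates and 9 TRAMP tumours was hybridised to Affymetrix arrays, 1 array per sample, per the labels. The deposited values are linear MAS5 signal intensities, per the submitters' processing notes, with every array's 2% trimmed mean at the same level. No detection calls were used, so dim means under the array's 40th percentile.

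From these, log2(signal + 16) was computed. Probe sets above the 40th percentile on at least 9 of 18 arrays were kept, and among a gene's own kept probe sets the brightest on average stood for it. limma 3.58.1 (R 4.3.3; lmFit, eBayes) compared the groups over 12793 genes and, separately, 27292 probe sets, with Benjamini-Hochberg adjustment, and members below the filter came from a fit with no filter. The fit was tested on simulated data. Exact permutation tests and figures used Python 3.11.15, numpy 2.4.6 and matplotlib 3.10.9. Named genes were the ETS family, up to 3 genes past the threshold per list by absolute t, and the 3 genes most like each member, and exceptions are marked in the text. Members and lists were chosen with earlier results of these data known. Alternatives covered scaling, filter, pseudocount, probe set choice, array weights, spike set, actin ratio and omitted arrays. The number of arrays limits the precision.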

Additional observations from a re-analysis of the deposited data

Results flagged for a closer look

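In 48 groups of 9 arrays, 1 for each of 24 ETS genes in normal prostate and in tumours, 4 held an array set apart from the rest by a gap beyond Dixon's 95% critical value, and chance flags about 5% of groups. Of these, 3 fell on normal prostate 9, the array with a high seminal vesicle score. Ehf was 10.72 there, with the nearest normal array at 12.16. Spdef was 5.84, with the nearest at 8.79. Elf1 was 9.39, with the nearest at 10.59. Elf4 was 4.91 on tumour 3, with the nearest tumour at 6.89. These flags rest on 1 probe set per gene. Every Ehf probe set was lowest on normal prostate 9 among normal arrays. Elf1 probe set 1439319_at was at its normal median there, 8.49. Elf4 probe set 1421338_at, below the filter, was 8.04 on tumour 3, against a tumour median of 7.99. The cause of these values was not tested.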

How the results depend on the processing

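With all arrays, 2 ETS members were called higher and 1 lower, with 3 other ETS genes, 3067 genes and 5358 probe sets called. The members called higher were 1 with quantile normalization, the mean of probe sets, no filter, centring on the 75th percentile or the spike set as a block, and 0 by the exact Wilcoxon test. Genes called in these fits ran from 2929 to 3186. With the actin ratio as a covariate 0 members were called higher and 0 lower, with 0 other ETS genes, 1634 genes and 2560 probe sets. In the dim spike set alone, limma called 0 members higher, 0 lower, 0 other ETS genes, 0 genes and 0 probe sets, with 1639 genes at an unadjusted p under 0.05. Without normal prostate 9 and tumours 3, 5 and 7, 2 members were lower, with 3934 of 12793 genes called. Without tumours 6 and 8 as well 2 were lower, with 4860 genes and 9055 probe sets called. More genes were called in both fits, so nothing is read from these member counts. Without normal prostates 1 and 3 and tumour 4, 0 members were higher, 0 lower and 1 other ETS gene was called, with 2387 genes. Without tumours 1 and 9, added after seeing the data, 1 was higher (Elf3) and 0 lower, with 2425 genes called. Without _s_at, _x_at or _a_at probe sets 0 were lower, since Spdef has no other probe set, with 2535 of 11164 genes called. Other ETS genes called were 1 after quantile normalization and 5 with array weights, with 2995 and 3809 genes called. Leaving out 1 array at a time gave 1 to 2 members higher, 0 to 1 lower, 1 to 4 other ETS genes, 2455 to 3411 genes and 4143 to 6127 probe sets.

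Centring on the 75th percentile moved the median of all genes to -0.09 and gave 1123 higher and 2057 lower genes, against 1444 and 1623. Correlations between the normal and tumour arrays of the same replicate number, as deviations from group means, ran from -0.106 to 0.314. The highest was at replicate 8. No reference from unlike numbers was computed, so these values do not settle whether the numbers pair the samples. With the replicate block 2 members were higher and 1 lower, with 2645 genes and 4696 probe sets called. The r of Spdef with the pan-epithelial score was 0.576 without 2 arrays. The causes were not tested. Signal near background limits Erg, Etv4 and the dimmer values of Spdef and Etv5.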

Other observations

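Elf5, an ETS factor of glandular epithelium that did not pass the filter, was bright on a few arrays. It was 13.18, 13.47 and 13.69 in tumours 3, 5 and 7 and 11.82 in normal prostate 9, the 4 arrays with the highest seminal vesicle scores. The next highest was 9.42 in normal prostate 3, and tumours 6 and 8 were at 5.40 and 7.17. The group difference was 1.47 ± 1.28 SE (limma adjusted p = 0.473 over 18193 genes with no filter).

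The brightest probe set of Etv6, an ETS repressor gene, lay outside its normal range of 9.78 to 10.24 in all 9 tumours, in opposite directions. Tumours 1 and 9 were below it, at 9.50 and 9.65, and the other 7 above it, up to 11.24. The difference of means was 0.31 ± 0.19 SE (limma adjusted p = 0.230), and this pattern was noticed after the values were seen and was not tested. The other Etv6 probe set, 1423401_at, did not show it. That probe set ran from 6.65 to 8.70 in normal prostate and from 6.01 to 8.21 in tumours.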
